A study of Ovis aries with 6 samples.

Results

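The neuromuscular junction is the synapse at which a motor nerve drives a skeletal muscle fibre. On the muscle side, acetylcholine opens a receptor built of 5 subunit proteins, and the receptor is packed under the nerve ending by a signalling route in which nerve-derived agrin binds LRP4, LRP4 activates the kinase MUSK, DOK7 supports that kinase, and RAPSN anchors the receptors. The receptor genes are transcribed mainly by the few nuclei below the nerve ending, and the gamma subunit of fetal muscle is replaced by the epsilon subunit after birth. The 10 genes described here were chosen by symbol: the receptor subunits CHRNA1, CHRNB1, CHRND, CHRNE and CHRNG, the clustering genes LRP4, MUSK, DOK7 and RAPSN, and COLQ, the collagen-like tail that holds acetylcholinesterase in the synaptic cleft. All 10 were found among the 23144 genes of the count table, and all 10 had reads.

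Longissimus dorsi muscle was taken from 3 sheep of each of a pair of breeds, QHMM (Qianhua Mutton Merino) and STH (Small Tail Han). All were females aged 1 year that were kept in the same environment, and no treatment is described. In the study, live weight was measured after a fast, before slaughter. Each animal gave 1 library of poly(A) RNA, read on an Ion Proton instrument, and the question asked of each gene was whether its level differed in STH vs. QHMM. The libraries held 10982191 to 14334544 reads on genes. In a principal component analysis QHMM replicate 2 and STH replicate 3 stood apart from the other libraries on the second component, so results that rest on them are also given without them. Normalized counts are corrected by TMM in edgeR for depth and for the share taken by abundant genes, and are scaled to the median library total. RPKM values, which also divide by gene length, are used where the levels of different genes are compared. A gene was called when edgeR's quasi-likelihood test gave an FDR (Benjamini-Hochberg, over 12506 tested genes) below 0.05 and the breeds differed by more than 1.5-fold.

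Of the 10 genes, 8 passed the filter on low counts, and 3 of these 8 were called: LRP4 and RAPSN were up-regulated and CHRNE was down-regulated in STH. Over all tested genes, 3.45% were called, 1.62% higher and 1.83% lower in STH (203 and 229 genes, against 212 and 134 with limma-trend on log2(RPKM + 1)). Log2 fold changes were above 0 in 5 of the 8 and in 51.8% of all tested genes. The other 5 tested genes, CHRNA1, CHRNB1, CHRND, MUSK and COLQ, did not pass. COLQ entered the test through its QHMM libraries alone, so its lower value in STH is tied to the filter. CHRNG and DOK7 had too few reads to be tested in this fit. The median log2 fold change of the 8 tested genes was 0.26, beside 0.02 over all tested genes. The breeds did not overlap in 4 of the 8, where 24.7% of all tested genes showed no overlap. The 10 genes were chosen with earlier results of these data known, so these shares are not independent of them. Because whole muscle was sequenced, a different number of synaptic nuclei and a different amount of RNA in each of them cannot be told apart.

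**Figure D1:**
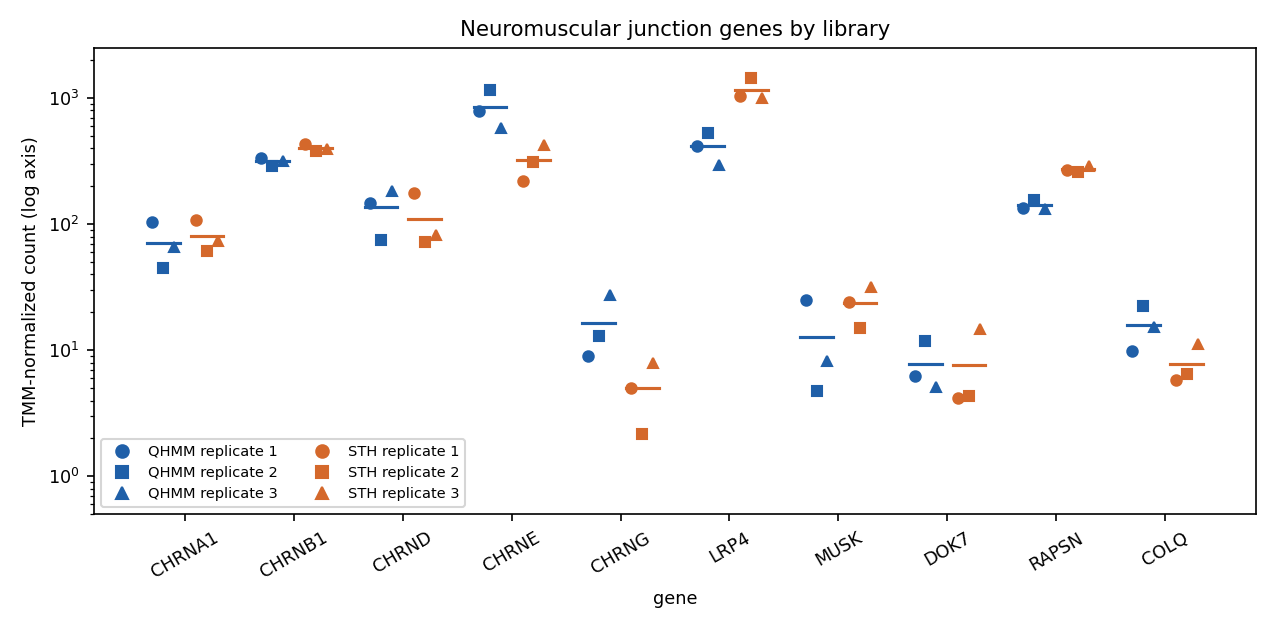
TMM-normalized counts of the 10 genes (log axis) in each library, with QHMM in blue, STH in orange, a symbol for each replicate number and bars at the breed means. The STH libraries lie below the QHMM libraries for CHRNE and CHRNG and above them for CHRNB1, LRP4 and RAPSN.

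CHRNE encodes the epsilon subunit, which makes the receptor adult in type. In replicates 1, 2 and 3 of QHMM its normalized counts were 789.7, 1172 and 577, against 222, 314 and 429 in those of STH. All STH libraries were lower than all QHMM libraries, which 11.7% of all tested genes also showed, with QHMM replicate 2 the highest and STH replicate 1 the lowest. The mean fell from 846 ± 302 (SD, n = 3) to 322 ± 104 (n = 3), which was 2.63 times higher in QHMM, and edgeR gave a log2 fold change of -1.40 (SE 0.32, FDR = 0.0411). Its 95% interval ran from -2.09 to -0.70.

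The direction of CHRNE was kept in every fit run, but its call was not. It was lost without QHMM replicate 1 (edgeR FDR = 0.0887), QHMM replicate 2 (0.132), STH replicate 1 (0.0732) or STH replicate 2 (0.108), and without both QHMM replicate 2 and STH replicate 3 (log2 fold change -1.36, FDR = 0.117), and also with limma-trend on log2(RPKM + 1) without a filter (FDR = 0.0778). In the newer RefSeq annotation ARS-UI_Ramb_v3.0 the gene overlaps C11H17orf107. That gene had 1 read in STH replicate 1 and none in the other libraries here, and whether the counting used strand is not given in the sources used here.

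CHRNG encodes the fetal gamma subunit, and CHRND and CHRNG are neighbours in the same annotation. Its raw counts of 10, 11 and 27 in QHMM, against 6, 2 and 7 in STH, were too few for the filter. Summed over a breed, they were 48 reads in QHMM (95% Poisson interval 35.4 to 63.6) and 15 in STH (8.40 to 24.7), and these intervals cover counting error only. After normalization the 3 STH libraries (4.99, 2.16 and 7.91) lay below the 3 QHMM libraries (9.00, 13.0 and 27.6), although QHMM replicate 1 and STH replicate 3 were close. With no filter on low counts, edgeR gave a log2 fold change of -1.71 (SE 0.67, FDR = 0.175), so CHRNG was not called.

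CHRNA1 encodes the alpha subunit, which carries the acetylcholine binding site and is present in a pair of copies in each receptor. In QHMM it had normalized counts of 104, 44.9 and 65.5, against 108, 61.4 and 73.4 in STH. The breeds overlapped, and replicate 1 of each breed had the highest value of that breed. Its log2 fold change was 0.18 (SE 0.36, FDR = 0.837) and turned to -0.06 without QHMM replicate 2, to -0.11 without STH replicate 1 and to -0.01 without both QHMM replicate 2 and STH replicate 3. The 95% interval of -0.61 to 0.96 still holds changes of the size called in other genes.

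CHRND, the delta subunit gene, had 148, 75.6 and 185 normalized counts in QHMM and 178, 72.2 and 82.5 in STH. The spread within each breed was larger than the difference between the breeds, with QHMM replicate 2 and STH replicates 2 and 3 low. Its log2 fold change of -0.29 (SE 0.41, FDR = 0.749, 95% interval -1.19 to 0.61) was not past the threshold. It was -0.83 without STH replicate 1 and -0.57 without QHMM replicate 2, but -0.006 without QHMM replicate 3, -0.08 without STH replicate 2 and -0.12 without STH replicate 3, and -0.41 without both QHMM replicate 2 and STH replicate 3.

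CHRNB1, the beta subunit gene, varied least of the receptor genes between animals, with a coefficient of variation of 7.23% in QHMM and 6.66% in STH. It had 337, 292 and 321 normalized counts in QHMM and 433, 380.4 and 397 in STH. All STH libraries were higher than all QHMM libraries, which 13.0% of all tested genes also showed. The difference in means, from 316 ± 22.9 to 403 ± 26.9 (SD, n = 3 each), was small, and the log2 fold change of 0.35 (SE 0.20, FDR = 0.368, 95% interval -0.09 to 0.79) did not pass.

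**Figure D2:**
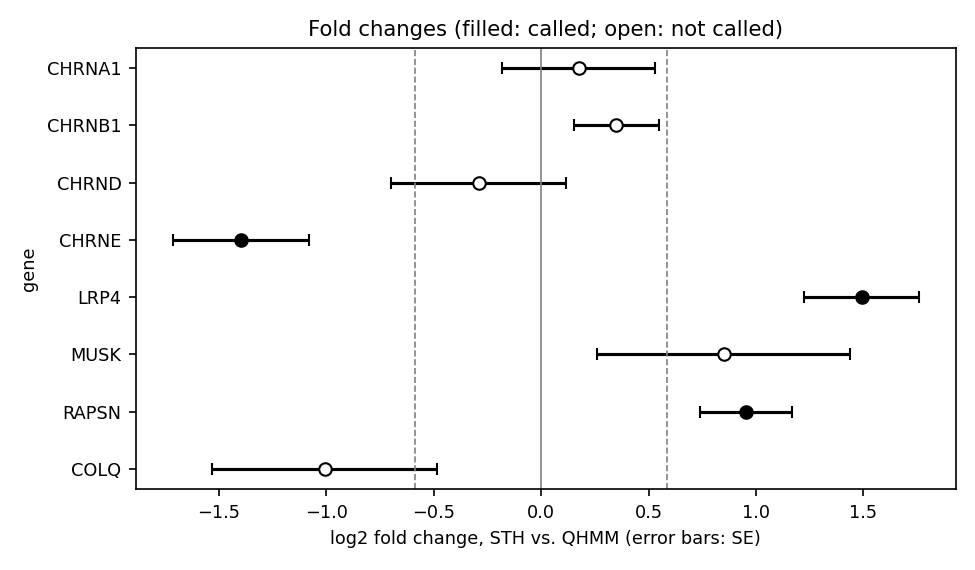
Log2 fold change in STH vs. QHMM of the 8 tested genes, with the SE as error bars, dashed lines at the minimum fold change and filled points for called genes. CHRNE is the filled point on the negative side, at -1.40, and LRP4 (1.49) and RAPSN (0.96) are filled on the positive side.

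LRP4 is the muscle receptor for agrin and the partner through which MUSK is switched on. In QHMM its normalized counts were 419.6, 531 and 297, against 1042, 1453 and 1012 in STH. Every STH library was higher than every QHMM library, and the lowest STH value was well above the highest QHMM value. The mean rose from 416 ± 117 (SD, n = 3) to 1169 ± 246 (n = 3), 2.81 times higher in STH, and edgeR put the log2 fold change at 1.49 (SE 0.27, FDR = 0.0182, 95% interval 0.90 to 2.08). The call was lost without QHMM replicate 1 (edgeR FDR = 0.0702) or QHMM replicate 3 (0.0659) and, with a log2 fold change of 1.79, without both QHMM replicate 2 and STH replicate 3 (0.0757). Limma-trend on log2(RPKM + 1) without a filter also lost it (FDR = 0.0697).

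RAPSN encodes rapsyn, the scaffold protein that binds the receptor from the inside of the fibre. It had 136, 156 and 133 normalized counts in QHMM and 271, 261 and 292 in STH. The values within a breed lay close together, and all STH libraries were higher than all QHMM libraries. The mean rose from 142 ± 12.4 (SD, n = 3) to 275 ± 15.6 (n = 3), 1.94 times higher in STH, and edgeR put the log2 fold change at 0.96 (SE 0.22, FDR = 0.0409, 95% interval 0.48 to 1.43). With any 1 of the 6 libraries left out the log2 fold change lay between 0.90 and 1.03, but the edgeR FDR was then 0.0634 (without STH replicate 1) to 0.130 (without QHMM replicate 1), so the call was lost each time. Without both QHMM replicate 2 and STH replicate 3 the FDR was 0.172, and with the replicate number as a block it was 0.0700. Limma-trend on log2(RPKM + 1) without a filter gave 0.0682.

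MUSK, the muscle-specific receptor kinase, was measured by few reads. Raw counts were 28, 4 and 8 in QHMM against 29, 14 and 28 in STH, or 25.2, 4.72 and 8.19 and 24.1, 15.1 and 31.6 after normalization. QHMM replicate 1 reached the STH values and QHMM replicates 2 and 3 lay below them, so that the breeds overlapped. The log2 fold change of 0.85 (SE 0.59, FDR = 0.477) had a 95% interval of -0.45 to 2.15, which also holds the change of LRP4. The value moved with single libraries: it was 1.81 without QHMM replicate 1 (edgeR FDR = 0.187), 0.49 without QHMM replicate 2 and 0.22 without both QHMM replicate 2 and STH replicate 3 (FDR = 0.905). The counts of the QHMM animals differed by more than counting error, with 95% Poisson intervals of 18.6 to 40.5 in replicate 1, 1.09 to 10.2 in replicate 2 and 3.45 to 15.8 in replicate 3.

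DOK7, the adaptor that MUSK needs for full activity, had 7, 10 and 5 reads in QHMM and 5, 4 and 13 in STH. Both breeds summed to 22 reads (95% Poisson interval 13.8 to 33.3), and the breeds overlapped. With no filter, edgeR gave a log2 fold change of -0.03 (SE 0.72, FDR = 0.998). A difference was not detectable at this depth.

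COLQ had 11, 19 and 15 reads in QHMM and 7, 6 and 10 in STH, or 9.91, 22.4 and 15.4 and 5.83, 6.47 and 11.3 after normalization. STH replicate 3 lay above QHMM replicate 1, and the other STH libraries were lower than all QHMM libraries. The log2 fold change of -1.01 (SE 0.53, FDR = 0.326, 95% interval -2.17 to 0.15) was not past the threshold. Only the QHMM libraries reached the level that the filter on low counts requires, so the direction of COLQ is tied to the filter. ACHE, the enzyme that COLQ tethers, had normalized counts of 41.4, 15.3 and 18.4 in QHMM and 30.8, 7.54 and 16.9 in STH. The breeds overlapped, and its log2 fold change was -0.43 (SE 0.56, FDR = 0.728).

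Per gene length, CHRNE was the most abundant of the 10 mRNAs in QHMM, with an RPKM of 41.8 ± 10.6 (SD, n = 3). CHRNB1 followed with 9.25 ± 1.52, RAPSN with 9.24 ± 0.179, CHRND with 8.18 ± 3.91, LRP4 with 5.28 ± 1.04 and CHRNA1 with 3.94 ± 1.89. CHRNE did not overlap with the next gene, whereas the neighbours from CHRNB1 to CHRNA1 in this order did. CHRNG (0.862 ± 0.567), COLQ (0.858 ± 0.263) and DOK7 (0.800 ± 0.277) could not be separated. MUSK had the lowest mean, 0.289 ± 0.259, but in QHMM replicate 1 (0.582) it lay above CHRNG (0.484) and COLQ (0.574) of the same library.

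In STH, RAPSN (19.5 ± 2.59), CHRNE (17.1 ± 2.78) and LRP4 (16.6 ± 4.95) had the highest RPKM and overlapped with each other (SD, n = 3 each). CHRNB1 had 12.8 ± 2.72, CHRND 7.34 ± 4.85 and CHRNA1 4.84 ± 2.08, and the neighbours from LRP4 to CHRNA1 in this order also overlapped. CHRNA1 was separated from the genes below it, which were DOK7 (0.820 ± 0.489), MUSK (0.552 ± 0.150), COLQ (0.453 ± 0.0856) and CHRNG (0.268 ± 0.124). Among genes with an RPKM above 0, the mean of CHRNE stood at percentile 92.2 in QHMM and 82.7 in STH, and that of LRP4 at 64.2 and 82.3.

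**Figure D3:**
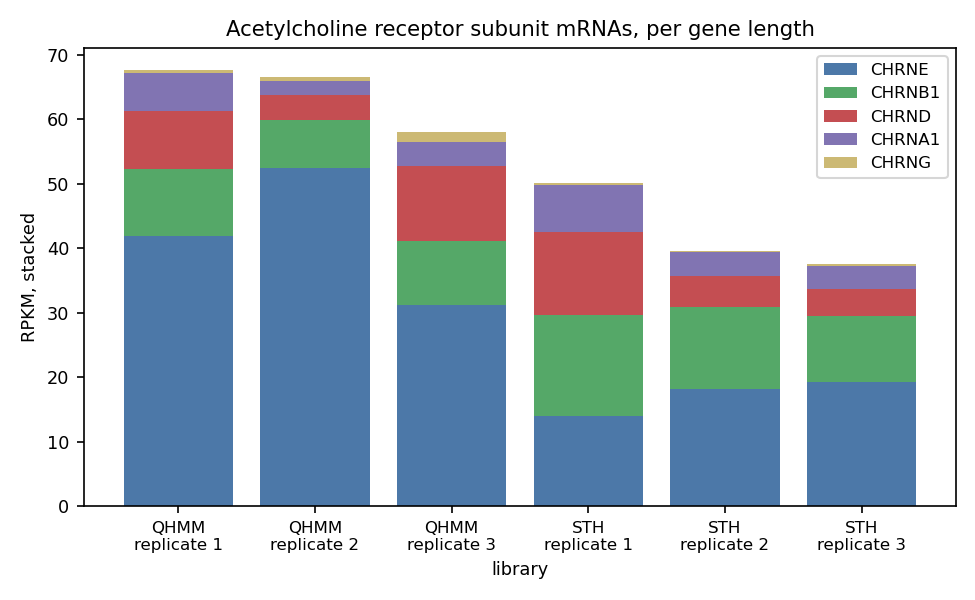
RPKM of the 5 receptor subunit genes, stacked for each library. CHRNE fills 53.7% to 78.8% of the bar in QHMM, against 27.9% to 51.2% in STH, and CHRNG is a thin band at the top of each.

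The sum of the 5 subunit mRNAs was 64.1 ± 5.30 RPKM in QHMM (SD, n = 3) and 42.4 ± 6.72 in STH (n = 3). Without CHRNE and CHRNG, the sum of CHRNA1, CHRNB1 and CHRND was 25.2, 13.5 and 25.3 in QHMM and 35.8, 21.3 and 18.0 in STH. The lower total in STH therefore lay in CHRNE, since the other 3 summed to overlapping values. The share of CHRNE in the total was 62.0%, 78.8% and 53.7% in QHMM and 27.9%, 45.9% and 51.2% in STH, without overlap. CHRNG made up 0.716%, 0.884% and 2.61% in QHMM and 0.635%, 0.320% and 0.955% in STH.

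A ratio within a library does not depend on its depth or its normalization factor. CHRNE was 7.10, 24.6 and 8.27 times as abundant as CHRNA1 per length in QHMM and 1.93, 4.80 and 5.49 times in STH. The breeds did not overlap, and the log2 ratio was lower in STH by a difference of -1.61, from 3.50 ± 0.98 to 1.89 ± 0.82 (SD, n = 3 each). In the exact permutation test (two-sided) p was 0.1, the smallest that 3 animals against 3 can give, and 0.3 after adjustment over the 3 ratios tested. CHRNE to CHRNB1 was 4.08, 6.99 and 3.13 in QHMM and 0.893, 1.43 and 1.88 in STH. CHRNE to CHRND was 4.63, 13.4 and 2.69 in QHMM and 1.08, 3.76 and 4.51 in STH, where the breeds overlapped. Both pairs were added after their values were seen and were not tested.

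CHRNE to CHRNG, the adult to fetal subunit ratio, was 86.6, 89.1 and 20.6 in QHMM and 43.9, 144 and 53.6 in STH. The breeds overlapped widely, and the difference of 0.36 in the log2 ratio had an exact permutation p of 0.8. Its sign depended on single libraries: it was -0.33 without QHMM replicate 3 and -0.16 without STH replicate 2, the library with 2 CHRNG reads. LRP4 to MUSK was 9.77, 66.0 and 21.3 in QHMM and 25.3, 56.5 and 18.8 in STH. This ratio also overlapped, with a log2 difference of 0.32 (exact permutation p = 0.8) that became -0.32 without QHMM replicate 1 and -0.13 without STH replicate 2. With 1 added to each RPKM, which is more than the RPKM of MUSK in any library, the difference was 1.18 (exact permutation p = 0.1), and with 0.1 added it was 0.68 (p = 0.4 in the same exact test).

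**Figure D4:**
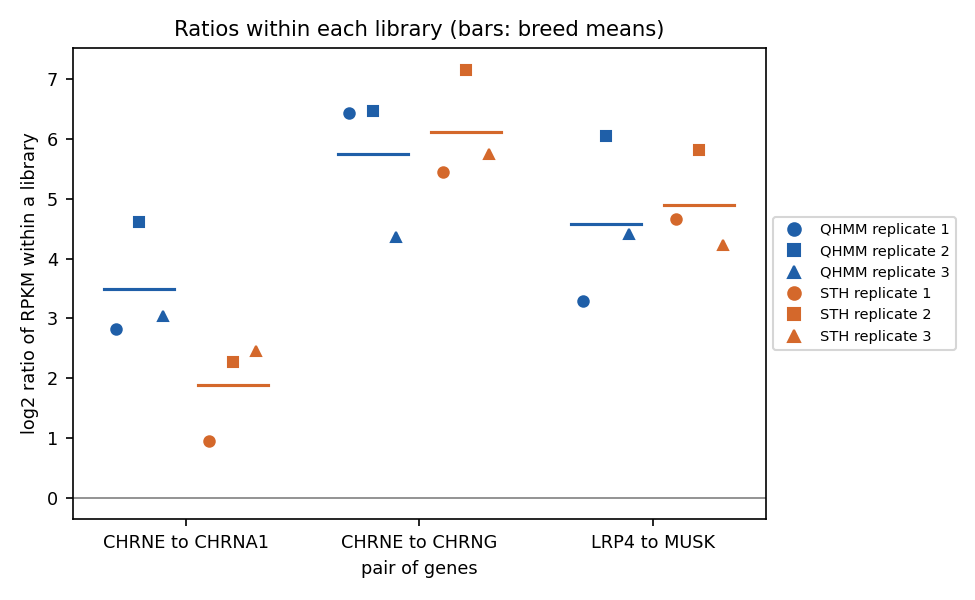
Log2 ratio of RPKM within each library for 3 pairs of genes, with bars at the breed means. The STH libraries are below the QHMM libraries for CHRNE to CHRNA1, and the breeds overlap for CHRNE to CHRNG and for LRP4 to MUSK.

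The nicotinic subunits of neurons and other tissues were nearly absent. Of 11 such genes, 5 had no read in any library and the highest count was 5. CHRNB4 had 5, 2 and 0 reads in QHMM and 0, 0 and 1 in STH. CHRNA9 had 1 read in QHMM replicate 1, 4 in STH replicate 1 and 3 in STH replicate 3. CHRNA3 had 4 reads in STH replicate 1 alone, and LOC101113104, which the table matches to CHRNA7, had 3 in QHMM replicate 1 alone. None of the 11 was tested.

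Around the 10 genes, 4 further lists described the synapse and its regulation, with 84 tested genes, of which 5 were called (5.95%, beside 3.45% of all genes). All 5 belonged to the list of denervation and activity genes, where 21 were tested and 23.8% were called. In that list DESeq2 called 7 and limma-trend on log2(RPKM + 1) called 3, beside 973 of 12506 and 346 of 11140 genes over all. Of the 21, 13 had an unadjusted p below 0.05, beside 19.2% of all tested genes. The breeds did not overlap in 12 of the 21, beside 24.7% of all tested genes. This list was chosen with earlier results of these data known, so its shares are not independent of them. Of 32 tested genes in agrin and neuregulin signalling, edgeR called 0, and 5 had an unadjusted p below 0.05, as did 19.2% of all tested genes. DESeq2 and limma-trend on log2(RPKM + 1) also called 0 of them. AGRN, the gene of agrin itself, had 309, 336 and 185 normalized counts in QHMM and 261, 189 and 216 in STH, which overlapped, and its log2 fold change was -0.32 (SE 0.27, FDR = 0.572). Muscle fibres and other cells also transcribe AGRN, so its level in muscle is not that of the nerve. The neuregulin receptors ERBB2 and ERBB3 had log2 fold changes of 0.07 (SE 0.23) and 0.15 (SE 0.43), and GABPA, an ETS factor that acts on synaptic promoters, of 0.49 (SE 0.32), none of them past the threshold.

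Of 22 tested genes of the postsynaptic scaffold and cleft, edgeR called 0 and limma-trend on log2(RPKM + 1) 0, DESeq2 called 3, and 6 had an unadjusted p below 0.05. Over all 12506 tested genes, DESeq2 called 973, and 19.2% had an unadjusted p below 0.05 in edgeR. The median log2 fold change of the 22 genes was -0.35, beside 0.02 over all tested genes. SCN4A, the muscle sodium channel, had 4247, 4576 and 3492 normalized counts in QHMM and 2844, 2407 and 2949 in STH. These did not overlap, but the log2 fold change of -0.59 (SE 0.23, FDR = 0.189) did not pass. DAG1, which encodes dystroglycan, had -0.61 (SE 0.30, FDR = 0.294), UTRN, which encodes utrophin, 0.08 (SE 0.34, FDR = 0.929) and NCAM1, a cell adhesion molecule of the synapse, -0.31 (SE 0.40, FDR = 0.719). Of 9 tested genes for receptor glycosylation and assembly, edgeR, DESeq2 and limma-trend each called 0, and 0 had an unadjusted p below 0.05. The log2 fold change of GFPT1, which starts the hexosamine route that feeds glycosylation, was 0.14 (SE 0.40, FDR = 0.886).

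Denervation and activity genes are known from muscle that has lost its nerve, and several act on receptor gene transcription. HDAC4, a histone deacetylase in this list, had 72.0, 76.7 and 99.3 normalized counts in QHMM and 142, 213 and 183 in STH. It was higher in all STH libraries and was called at a log2 fold change of 1.11 (SE 0.26, FDR = 0.0475). The myogenic factors of the same list, which bind E-boxes of receptor genes, did not move one way. MYF6 was up-regulated (1.41, SE 0.22, FDR = 0.0123) and MYOD1 was down-regulated (-2.61, SE 0.53, FDR = 0.0292). MYOG had -1.76 (SE 0.44, FDR = 0.0550), which did not pass. The study, with a different test, listed MYF6, MYOD1 and MYOG as differentially expressed in the same directions. RUNX1, also in this list, had 9.91, 9.44 and 5.12 normalized counts in QHMM and 26.6, 14.0 and 38.4 in STH, without overlap. Its log2 fold change of 1.67 (SE 0.52, FDR = 0.108) did not pass. The ubiquitin ligase genes TRIM63 (3.52, SE 0.44, FDR = 0.00489) and FBXO32 (2.68, SE 0.61, FDR = 0.0433) were also up-regulated in STH. The median of the list was -0.01. Over all the wider lists, without both QHMM replicate 2 and STH replicate 3, edgeR called 0 of 84 tested genes. Of those 84, 16 had an unadjusted p below 0.05. Over all 12728 genes tested in that fit, edgeR called 11, and 1957 had an unadjusted p below 0.05.

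**Figure D5:**
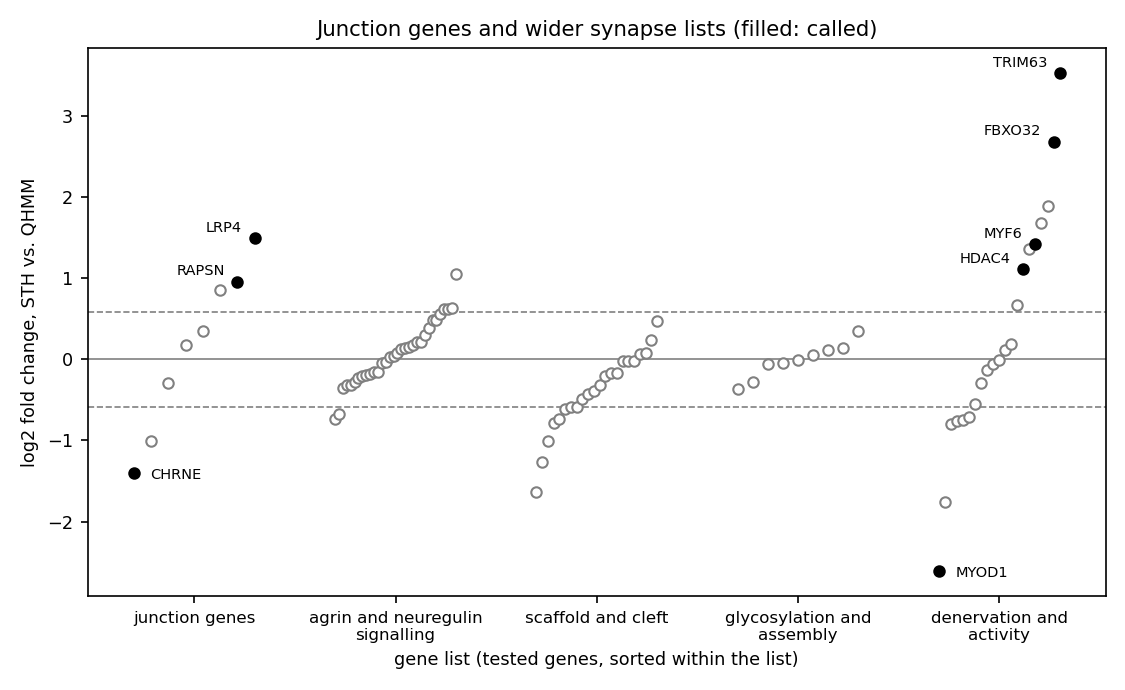
Log2 fold change in STH vs. QHMM of every tested gene in the junction list and the 4 wider lists, sorted within a list, with dashed lines at the minimum fold change and filled, named points for called genes. The filled points are LRP4, RAPSN and CHRNE in the first list and TRIM63, FBXO32, MYF6, HDAC4 and MYOD1 in the last.

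Other cell types and fibre types in the samples were described by marker genes, summed as CPM, the count scaled to a fixed library total on genes. The 9 skeletal muscle markers, of which TNNT3 was at 0 in every library, summed to 241562 to 270733 in QHMM and 206479 to 265722 in STH, and edgeR called 0 of the 8 tested (DESeq2 0, and 1 at an unadjusted p below 0.05). The 8 Schwann cell markers, of the glia that cover the nerve ending, summed to 47.8 to 87.9 in QHMM and 47.1 to 78.4 in STH, and edgeR and DESeq2 each called 0 of the 7 tested, with 0 at an unadjusted p below 0.05. Among the 9 motor neuron markers NEFH and SLC18A3 were at 0 in every library, CHAT had 1 read in all, and the sum (27.4 to 35.7 in QHMM, 25.1 to 45.6 in STH) came mainly from PRPH, which was tested and not called. Slow-fibre markers moved with the breeds: their sum was 27814 to 35794 in QHMM and 11352 to 16772 in STH, and edgeR called 4 of the 8, all lower in STH (DESeq2 7, limma-trend on log2(RPKM + 1) 4, and 8 at an unadjusted p below 0.05). Adipocyte markers summed to 98.1 to 389.7 in QHMM and 44.1 to 95.5 in STH, and edgeR called 4 of 5, all lower in STH (DESeq2 4, limma-trend 2). Among these called genes, LEP had 84, 11 and 24 reads in QHMM and 5, 0 and 1 in STH. LEP entered the test through its QHMM libraries alone, so its direction is tied to the filter. The 6 fibroblast markers summed to 1928 to 3980.3 in QHMM and 870.5 to 1979 in STH, and their normalized sum was lower in every STH library. Of these 6, edgeR called 0, DESeq2 called 3, limma-trend called 0, and 3 had an unadjusted p below 0.05. Satellite cell markers summed to 17.5 to 33.9 in QHMM and 33.3 to 38.0 in STH. Of the 4 tested, CDH15 was called higher by edgeR (log2 fold change 1.12, FDR = 0.0448), whereas PAX7 had -1.43 (FDR = 0.294), CXCR4 -0.05 and MYF5 -0.0084, none of them called (DESeq2 called 1 of the 4, limma-trend 0). Endothelial markers (4 of 6 in the table, with a normalized sum higher in every STH library) summed to 517 to 632 and 552 to 896, and leukocyte markers to 74.0 to 103 and 49.5 to 118. Of the last pair of lists, edgeR and DESeq2 each called 0, with 0 at an unadjusted p below 0.05. The part of the slow-fibre, adipocyte and fibroblast differences in the values of CHRNE, LRP4 and RAPSN was not tested.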

How the data were processed

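The authors filtered the Ion Proton reads, mapped them to the sheep genome Oar 3.1 and kept unique mapped reads. They deposited the number of reads per gene as counts, without normalization, and RPKM values, in which the deposited counts are divided by gene length and by the library total on genes. How reads were aligned and counted, and with which annotation, is not given in the sources used here. All 12 sample columns were used. A join of the tables left out 25 gene names, none of them among the 10 genes. Counts were tested in R 4.3.3 with edgeR 4.0.16 (TMM, filterByExpr, then glmQLFit and glmQLFTest on a model that held breed alone). The SE was taken from the log2 fold change and the F statistic. DESeq2 1.42.0 and limma 3.58.1 were used as alternatives, and EBSeq, the program of the study, was not installed. Ratios were tested by exact permutation in SciPy 1.17.1. The scripts were tested on simulated data.

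The labels give no batch. Replicates are separate animals, with 3 per breed. Library totals of 10982191 to 14334544 reads mean that a gene with 3 reads or fewer in a library is at the floor, and intervals on counts cover counting error only. The named genes are the 10 members in full, 15 genes fixed from the wider lists, every gene of those lists that was called, and other nicotinic subunits with 3 or more reads in a library. The members, the lists and the markers were chosen with earlier results of these data known. RefSeq ARS-UI_Ramb_v3.0, in which all 10 symbols were matched, is a different build from Oar 3.1 and was used for names and neighbours only. Sequences were not used here.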

Additional observations from a re-analysis of the deposited data

How the results depend on the processing

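With all 6 libraries, 10 alternatives were tried, and 6 more fits each left out 1 library. Leaving out both QHMM replicate 2 and STH replicate 3 was added after seeing the data. Of the 10 genes, 3 were called with DESeq2, upper-quartile normalization, either filter on counts, limma-trend on log2(RPKM + 1) or log2(RPKM + 0.1), without the 20 most abundant genes or without a minimum fold change. With limma-trend on log2(RPKM + 1) and no filter, 0 were called (4 at an unadjusted p below 0.05), where the FDR was 0.0697 for LRP4, 0.0682 for RAPSN and 0.0778 for CHRNE. Without both QHMM replicate 2 and STH replicate 3 it was 0 (3 at an unadjusted p below 0.05), and with 1 library left out 0 to 2 (0 without QHMM replicate 1, 2 without STH replicate 3, 1 without any other). LRP4, RAPSN and CHRNE kept their direction in every fit. The log2 fold change of CHRNA1 turned to -0.0062 without both QHMM replicate 2 and STH replicate 3, and lay between -0.11 and 0.53 with 1 library left out.

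Over all genes, the number called was 432 in the reported fit, 973 with DESeq2, 806 with no filter on low counts, 78 with limma-trend on log2(RPKM + 1) and no filter, 11 without both QHMM replicate 2 and STH replicate 3, and 131 to 535 with 1 library left out (131, 208 and 150 without QHMM replicates 1, 2 and 3, and 183 without STH replicate 2). Of the wider lists, 5 genes were called in the reported fit, 10 with DESeq2 or with no filter on low counts, 3 with limma-trend on log2(RPKM + 1) or log2(RPKM + 0.1), 2 with limma-trend and no filter, 0 without both QHMM replicate 2 and STH replicate 3, and 2 to 9 with 1 library left out (2 without any QHMM library, 9 without STH replicate 1, 3 without STH replicate 3). The causes were not tested. The median log2 fold change over 10479 genes was 0.04 in the reported fit and 0.15 with log2(RPKM + 0.1), a scale that carries no TMM factor.

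The difference in the log2 ratio of CHRNE to CHRNG was -0.70 when 1 was added to each RPKM, and -0.33 to 0.72 with 1 library left out. That of CHRNE to CHRNA1 was -1.94 to -1.05, and that of LRP4 to MUSK -0.32 to 1.06. The labels state no pairing of animals by replicate number. The correlation of the deviations of same-numbered libraries was 0.23, -0.04 and -0.13, and 1 of 3 QHMM libraries correlated best with its own number. So few libraries cannot show whether same-numbered animals shared any handling. With the replicate number as a block, 457 genes, 2 of the 10 (LRP4 and CHRNE) and 6 of the wider lists were called, and the paired difference was 0.36 for CHRNE to CHRNG, -1.61 for CHRNE to CHRNA1 and 0.32 for LRP4 to MUSK. MUSK, DOK7, CHRNG and COLQ had 2 to 29 reads in a library, so counting error is a larger part of their values than for the other members.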
